A study of Mus musculus with 6 samples.

Results

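The genes described here encode the platelet-derived growth factor (PDGF) ligands and receptors, together with the receptor Kit and its ligand. They were taken by name: the receptors Pdgfra, Pdgfrb, Pdgfrl and Kit and the ligands Pdgfa, Pdgfb, Pdgfc, Pdgfd and Kitl, which are 9 of the 18193 genes measured. They were read by 21 of the 34945 probe sets that carry a single gene symbol. For each gene the probe set brightest on average leads, and the others serve as a check. RNA from 6 clones of mouse embryonic fibroblasts was hybridised to 1 Affymetrix array each. The clones had become immortal spontaneously in culture. Clones E, H and J came from FHL2-/- mice, in which every cell lacks FHL2, a LIM-domain adaptor that binds transcription factors and integrin tails. Clones E, F and I came from wild type mice, and the shared letter E names separate clones. Each array therefore read a single clone in place of a mixed culture. The labels call the clones biological replicates, without saying if each had its own embryo.

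PDGFs are dimeric growth factors that drive division and migration of mesenchymal cells. They act through the receptor tyrosine kinases PDGFR-alpha and PDGFR-beta, which pair when a ligand bridges them. PDGF-A binds PDGFR-alpha, PDGF-B binds both receptors, PDGF-C binds PDGFR-alpha, and PDGF-D binds PDGFR-beta. PDGF-C and PDGF-D are secreted in a latent form and must be cut by proteases before they bind. Kit belongs to the same receptor class, and its ligand, stem cell factor, is encoded by Kitl. Fibroblasts and other stromal cells make stem cell factor for Kit-bearing mast cells, melanocytes, germ cells and blood progenitors.

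Values are RMA log2 intensities as deposited, and differences are knockout minus wild type with the standard error (SE) of a limma fit over all genes. A gene is said to rise or fall where the Benjamini-Hochberg adjusted p over all 18193 genes lay under 0.05. Intensities of different probe sets are not levels that can be set against each other. Fhl2 itself read 6.01, 6.44 and 6.57 in the E, H and J knockouts, against 9.88, 8.57 and 9.64 in the E, F and I wild types (difference -3.02, SE 0.35, limma adjusted p = 0.00400). No source used here places its probe set inside or outside the deletion. Clone H differed from the other knockouts. Its correlations across genes were 0.964 and 0.968 with knockout clones E and J, which correlated at 0.991 with each other. Xist, the RNA that silences an X chromosome in female cells, read 9.82 in clone H and 4.69 to 5.11 in the other clones. Wild type clone E is written with 9 decimals and the other clones with 3, and whether that array was processed apart from the rest is not known. Array medians were 4.52 to 4.54 in knockout clones and 4.44 to 4.46 in wild type clones. The 3' minus 5' difference of Gapdh, a sign of RNA quality, was -0.12 to -0.04 in knockout clones and -0.04 to 0.05 in wild type clones. That of actin leaned the other way, at 0.103 to 0.235 in knockout clones and 0.093 to 0.133 in wild type clones. The part of RNA quality in the differences below was not tested.

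The fibroblast label was checked against 10 marker genes, and 10 of 10 lay at or above the median gene level. Their summed intensity was 71090 to 75679 in knockout clones and 53509 to 61576 in wild type clones, so the sum moved with genotype in the direction of Pdgfra. Its genes did not all move one way. The matrix genes Dcn, Lum and Postn rose by 2.04, 4.81 and 1.19 (limma adjusted p = 0.0487, 0.0213 and 0.0139). The surface antigen gene Thy1 fell by 1.34 (adjusted p = 0.0262), and the other 6 genes did not pass. Postn lost its call only with wild type E omitted, and the other 3 lost theirs in 4 or 5 of the 6 fits that omit a clone. The collagen genes Col1a1 and Col1a2 read 13.04 to 13.63 over all 6 clones. The summed intensity of 5 epithelial markers was 270 to 289 in knockout clones and 343 to 496 in wild type clones. Krt19, a keratin, fell by 3.05 (adjusted p = 0.00310), a call that held whichever clone was omitted. Epcam, an epithelial adhesion molecule, rose by 0.43 (adjusted p = 0.0327) in a call that held only with knockout H omitted. Cdh1, Krt8 and Krt18 differed by 0.02, 0.02 and -1.01 and did not pass. The summed intensity of 6 endothelial markers was 202 to 563 in knockout clones and 86 to 158 in wild type clones. By mean level, 0 of the 6 lay at or above the median gene level. Of these Tek, a receptor gene, rose by 4.27 (SE 1.07, adjusted p = 0.0378), and the others did not pass. Tek read 8.36, 4.68 and 8.91 in the E, H and J knockouts, against 3.27, 3.31 and 2.54 in the E, F and I wild types. The sum rests largely on Tek in knockouts E and J and on Kdr (6.99) in knockout H. Pecam1, Cdh5, Emcn and Cldn5 read 2.6 to 4.4 over all 6 clones. The part of these marker shifts in the differences below was not tested. Each array read RNA pooled over the cells of a clone. A change in the share of its cells that carry a transcript and a change in RNA per cell cannot be told apart.

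Of the 9 genes, 3 rose, 2 fell and 4 did not pass. Pdgfra, the PDGFR-alpha gene, and Pdgfa, whose product binds that receptor, were both higher in knockout clones. Pdgfrb, the PDGFR-beta gene, and Pdgfd, whose product binds that receptor, were both lower. Not every ligand followed its receptor. Pdgfc, whose product also binds PDGFR-alpha, and Pdgfb, whose product binds both receptors, did not pass (0.25 and 0.12). Pdgfrl, a receptor-like gene without a kinase domain, rose most among the genes that passed, and Pdgfd fell most. Over all genes 9.04% rose, 10% fell and 19% did either; the 9 genes were chosen with earlier results of these data known. In 5 of the 9 genes the clones of the genotypes did not overlap, beside 38.9% of all genes: 3 lay wholly above (20.7% of all genes) and 2 wholly below (18.2%). The median difference was 0.25 over the 9 genes and 0.04 over all genes.

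**Figure D1:**
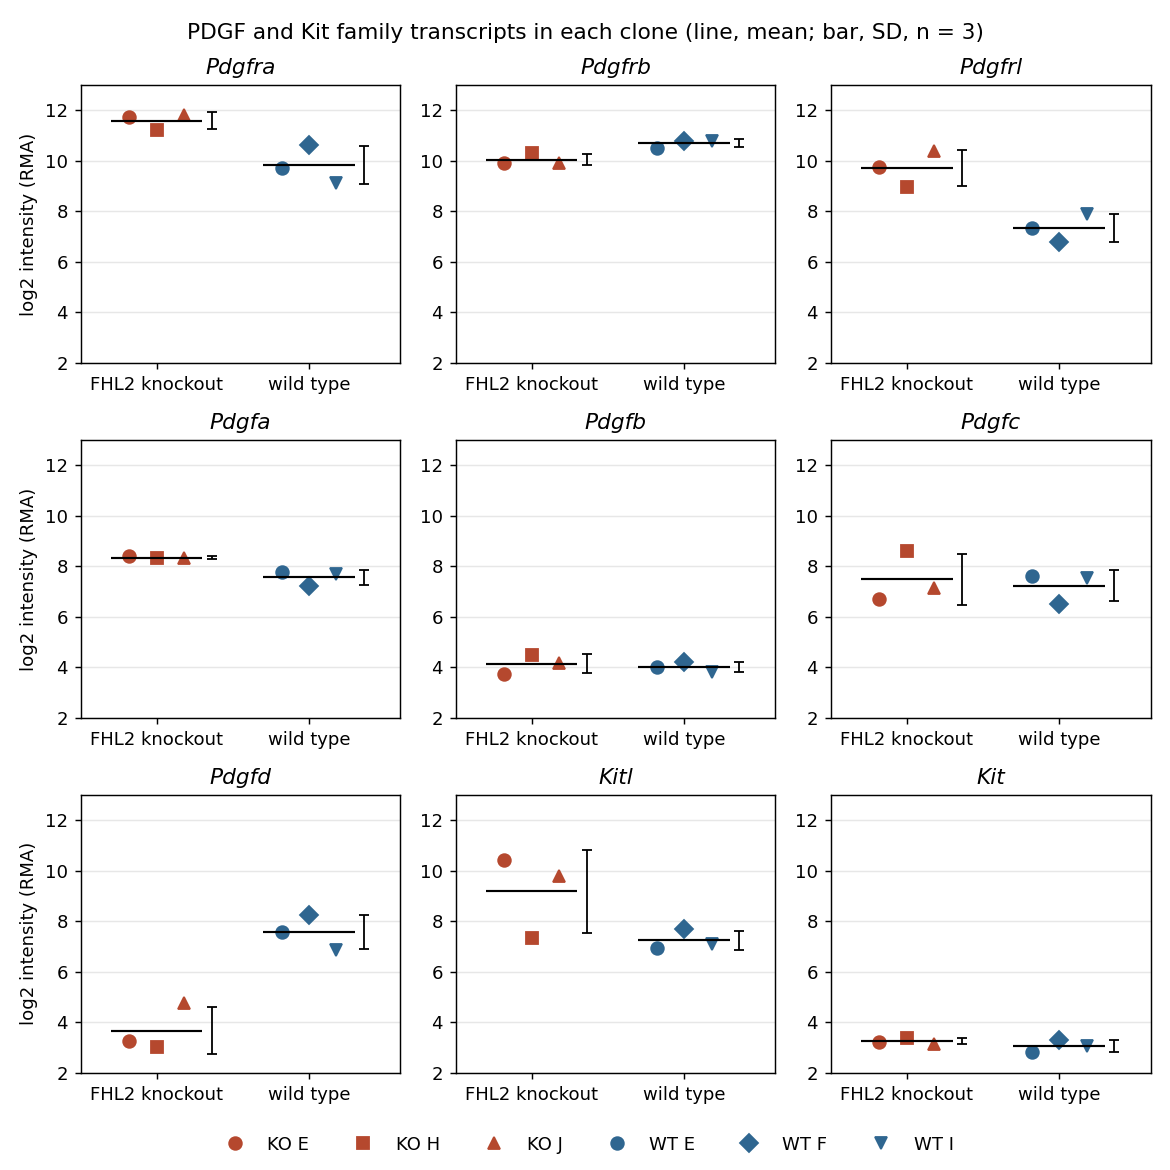
Log2 intensity of each gene's leading probe set (vertical axis) in the 3 knockout clones, on the left of each panel, and the 3 wild type clones, on the right; lines are means and bars are SD. Pdgfra, Pdgfrl and Pdgfa lie higher and Pdgfrb and Pdgfd lower in every knockout clone, Kitl is high in knockout clones E and J alone, and Kit stays between 2.84 and 3.39.

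Promoter windows are shown for 4 of these genes because their transcripts carry the pattern: Pdgfra and Pdgfa rose, Pdgfd fell, and Kitl split the knockout clones. The RefSeq promoter table (assembly GRCm38.p6) matched 6 of the 9 genes, all but Pdgfrb, Pdgfrl and Pdgfb. Each window runs from 250 bases before to 50 bases after an annotated start, 5' to 3' on the gene's strand, and capitals mark matches to the motifs named after the sequences.
Pdgfra, chr5:75152001-75152300, plus strand: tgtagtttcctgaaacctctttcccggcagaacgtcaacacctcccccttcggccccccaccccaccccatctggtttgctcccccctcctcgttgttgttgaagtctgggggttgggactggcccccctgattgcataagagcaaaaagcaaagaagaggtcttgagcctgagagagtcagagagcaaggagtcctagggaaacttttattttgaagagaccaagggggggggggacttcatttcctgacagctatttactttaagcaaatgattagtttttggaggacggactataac
Pdgfa, chr5:138994895-138995194, minus strand: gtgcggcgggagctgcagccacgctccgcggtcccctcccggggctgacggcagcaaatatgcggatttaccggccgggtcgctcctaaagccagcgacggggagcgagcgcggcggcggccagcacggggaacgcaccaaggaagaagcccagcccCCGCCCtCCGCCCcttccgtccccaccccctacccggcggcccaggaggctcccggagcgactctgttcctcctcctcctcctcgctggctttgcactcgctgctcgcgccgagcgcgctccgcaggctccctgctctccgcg
Pdgfd, chr9:6168236-6168535, plus strand: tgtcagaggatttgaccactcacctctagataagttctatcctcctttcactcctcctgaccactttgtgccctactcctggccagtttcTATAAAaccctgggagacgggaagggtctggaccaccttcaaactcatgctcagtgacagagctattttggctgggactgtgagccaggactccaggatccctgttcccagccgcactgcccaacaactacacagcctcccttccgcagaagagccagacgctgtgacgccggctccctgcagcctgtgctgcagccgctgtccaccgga
Kitl, chr10:100015571-100015870, plus strand: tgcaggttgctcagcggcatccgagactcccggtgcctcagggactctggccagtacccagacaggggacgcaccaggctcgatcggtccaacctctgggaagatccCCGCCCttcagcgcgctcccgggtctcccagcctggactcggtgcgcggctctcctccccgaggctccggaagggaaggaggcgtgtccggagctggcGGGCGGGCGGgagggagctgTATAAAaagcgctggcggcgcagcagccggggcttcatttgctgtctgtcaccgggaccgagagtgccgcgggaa
Both strands of each window were searched for 4 motifs. The AP-1 motif was spelled TGANTCA. The motif of TCF/LEF factors was spelled TCAAAG. The GC box was spelled GGGCGG. The TATA box was spelled TATAAA. AP-1 and beta-catenin, the partner of TCF/LEF, are known to bind FHL2. Of 32851 windows of 300 bases in the table, 7.81% held the AP-1 letters, 16% the TCF/LEF letters, 35.7% the GC box and 13.6% the TATA box. The Pdgfra window held none of these letters, and its GC content was 51%. The Pdgfa window shown held 2 GC boxes on the opposite strand, at -93 and -86 from the start, at a GC content of 73.3%. A second annotated start of Pdgfa, whose window is not shown, had 1 GC box. The Pdgfd window held 1 TATA box at -160, and its GC content was 56.7%. The Kitl window held 3 GC boxes, of which those at -45 and -41 overlap, and 1 TATA box at -25. A match is a run of letters and not a shown binding site, and a window without a match says nothing about binding elsewhere.

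Among the receptors, Pdgfra was higher in every knockout clone. It read 11.74, 11.20 and 11.82 in the E, H and J knockouts, against 9.72, 10.63 and 9.14 in the E, F and I wild types. The lowest knockout clone, H, lay above the highest wild type clone, F, by less than the spread among the wild type clones. Group means were 11.59 ± 0.338 in knockout and 9.83 ± 0.750 in wild type clones (SD, n = 3 each), so Pdgfra rose 3.40-fold (1.76, SE 0.38, limma adjusted p = 0.0247). The rise was larger than the spread between clones, but 4 of the 6 fits that leave out 1 clone lost the call: adjusted p was 0.0755 with knockout E omitted, 0.0863 with knockout J omitted, 0.0920 with wild type E omitted and 0.0541 with wild type I omitted. In those 6 fits the difference ran between 1.42 and 2.16. The 2 other probe sets of Pdgfra rose as well, by 2.11 (SE 0.32) and 1.58 (SE 0.35), and in both of them every knockout clone lay above every wild type clone. One of the pair was designed on the same sequence record as the leading probe set, so they are not independent readings.

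Pdgfrb was lower in every knockout clone, by less than 2-fold. It read 9.92, 10.31 and 9.92 in the E, H and J knockouts, against 10.51, 10.79 and 10.77 in the E, F and I wild types. Clone H was the knockout clone nearest to the wild type clones. Group means were 10.05 ± 0.226 in knockout and 10.69 ± 0.156 in wild type clones (SD, n = 3 each), so Pdgfrb fell by 0.64 (SE 0.15, limma adjusted p = 0.0321). This was the least secure of the 5 calls. It held without knockout clone H (-0.77, adjusted p = 0.00758) and was lost without any other clone (adjusted p = 0.0569 to 0.108). The leading probe set is of the _a_at kind, which reads several transcripts of a gene, and the other probe set did not pass (-0.53, SE 0.18, adjusted p over all probe sets = 0.0909). Pdgfrb also marks pericytes and smooth muscle. The summed intensity of 10 markers of those cells was 2329, 17872 and 2491 in the E, H and J knockouts, against 20393, 14396 and 16313 in the E, F and I wild types. It was low in knockouts E and J alone, and its part in the Pdgfrb difference was not tested. The sum rests largely on the smooth muscle genes Acta2 and Tagln, which did not pass (-1.56 and -2.96, limma adjusted p = 0.186 and 0.123). Other genes of the list moved in both directions. Notch3, a receptor of pericytes and smooth muscle, rose by 1.68 (SE 0.35, adjusted p = 0.0219) and was higher in every knockout clone. Mcam, an adhesion molecule, fell by 2.95 (SE 0.76, adjusted p = 0.0412) and was lower in every knockout clone, H included. The Mcam call held only with knockout H omitted, and the Notch3 call only with knockout E or knockout H omitted. Cspg4, a pericyte proteoglycan, differed by 1.06 (SE 0.60) and did not pass.

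Pdgfrl encodes a protein whose immunoglobulin-like part resembles the ligand-binding part of PDGFR-beta. It read 9.75, 8.98 and 10.39 in the E, H and J knockouts, against 7.33, 6.80 and 7.90 in the E, F and I wild types. The groups did not overlap, and clone H was again the knockout clone nearest to the wild type clones. Pdgfrl rose 5.15-fold (2.36, SE 0.42, limma adjusted p = 0.0129), and 178 of all genes had a larger positive difference. With wild type E omitted it no longer passed (2.36, adjusted p = 0.0559), and it held in the other 5 fits. Pdgfrl was read by 1 probe set, so no second probe set checks it.

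Kit, the stem cell factor receptor, gave readings near the lower end of the scale in all 6 clones. It read 3.23, 3.39 and 3.14 in the E, H and J knockouts, against 2.84, 3.30 and 3.07 in the E, F and I wild types. The groups overlapped, and the difference of 0.18 (SE 0.14, limma adjusted p = 0.435) had a 95% interval of -0.16 to 0.53. The group means lay at percentiles 15.1 (knockout) and 12.4 (wild type) of all gene means, so a reading here need not come from transcript. A second probe set read 2.83 to 3.16 in knockout clones and 2.84 to 3.29 in wild type clones. Mast cells carry Kit, and of 8 markers of these cells 1, Gata2, lay at or above the median gene level, and the others read 2.80 to 5.18 in the knockouts and 2.60 to 4.96 in the wild types. Gata2 rose by 0.89 (SE 0.15, limma adjusted p = 0.0105), a call that held whichever clone was omitted, and no other marker of the list passed. Their summed intensity was 423 to 472 in knockout clones and 255 to 333 in wild type clones. Of 7 melanocyte markers 1 lay at or above the median.

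Among the ligands, Pdgfa was higher in every knockout clone and varied little among them. It read 8.40, 8.32 and 8.31 in the E, H and J knockouts, against 7.76, 7.23 and 7.68 in the E, F and I wild types. Group means were 8.34 ± 0.0518 in knockout and 7.56 ± 0.285 in wild type clones (SD, n = 3 each), so Pdgfa rose 1.73-fold (0.79, SE 0.16, limma adjusted p = 0.0188). The rise exceeded the spread between clones, but it no longer passed with knockout E omitted (adjusted p = 0.0622) or knockout J omitted (0.0620). A second probe set, designed on the same sequence record, rose by 0.88 (SE 0.17, adjusted p over all probe sets = 0.0173).

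Pdgfd showed the largest difference of the 9 genes. It read 3.26, 3.01 and 4.75 in the E, H and J knockouts, against 7.58, 8.25 and 6.88 in the E, F and I wild types. Knockout clone J kept a higher reading than clones E and H, and all 3 lay below every wild type clone. Group means were 3.67 ± 0.941 in knockout and 7.57 ± 0.689 in wild type clones (SD, n = 3 each), a measured fall of 14.9-fold (-3.90, SE 0.54, limma adjusted p = 0.00639). In 32 of all genes the negative difference was larger. Pdgfd was called whichever of the 6 clones was omitted (-4.44 to -3.56, adjusted p = 0.00464 to 0.0334), and no other of the 9 genes was. Knockout readings were close to the bottom of the scale (percentile 23.2 of gene means), so the size of the fall is not exact. A second probe set fell by 2.98 (SE 0.24, adjusted p over all probe sets = 0.00175). The other probe set of the gene read 2.63 to 2.91 in the knockouts and 2.72 to 2.91 in the wild types and showed no difference (-0.04, SE 0.12). With all its probe sets averaged, Pdgfd fell by 2.31 (SE 0.27, limma adjusted p = 0.00425).

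Pdgfb and Pdgfc did not pass. Pdgfb, which in tissues comes mainly from endothelial cells and platelets, read 3.75, 4.49 and 4.18 in the E, H and J knockouts, against 4.01, 4.23 and 3.80 in the E, F and I wild types. The groups overlapped near the lower end of the scale, and the difference of 0.12 had a 95% interval of -0.39 to 0.64 (limma adjusted p = 0.736). Pdgfc read 6.70, 8.62 and 7.12 in the E, H and J knockouts, against 7.62, 6.52 and 7.55 in the E, F and I wild types. It varied more within each genotype than between them, and clone H was the highest of the 6 clones. Its difference of 0.25 had a 95% interval of -1.06 to 1.57 (SE 0.55, limma adjusted p = 0.793), wide enough to hold a 2-fold change in either direction. A second Pdgfc probe set ordered the clones in nearly the same way, with clone H highest at 7.80 and knockout clone E lowest at 5.21.

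Kitl split the knockout clones. It read 10.42, 7.32 and 9.78 in the E, H and J knockouts, against 6.95, 7.67 and 7.09 in the E, F and I wild types. Clones E and J lay above every wild type clone, and clone H lay within the wild type range. The knockout SD was 1.64, against 0.385 in wild type clones (n = 3 each), and the difference of 1.94 did not pass (SE 0.77, limma adjusted p = 0.135, 95% interval 0.09 to 3.78). Without knockout clone H, the clone that stood apart over all genes, the difference was 2.86 (SE 0.28, limma adjusted p = 0.00109), and without the other clones it was 1.31 to 2.15 and did not pass. With array weights, which gave clone H a weight of 0.385 and the other clones 1.07 to 1.56, Kitl passed (2.49, limma adjusted p = 0.0166). That run discounts the same clone, so it is no separate check of the rise. The 3 other probe sets of Kitl read clone H at 6.83, 4.11 and 4.24, against 10.16, 7.22 and 6.89 in knockout clone E and 9.53, 5.90 and 5.70 in knockout clone J. In the same probe sets the wild type clones read 5.96 to 6.84, 4.44 to 4.67 and 3.90 to 4.08, and none of the 3 passed. In the last of them clone H lay just above the wild type clones.

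**Figure D2:**
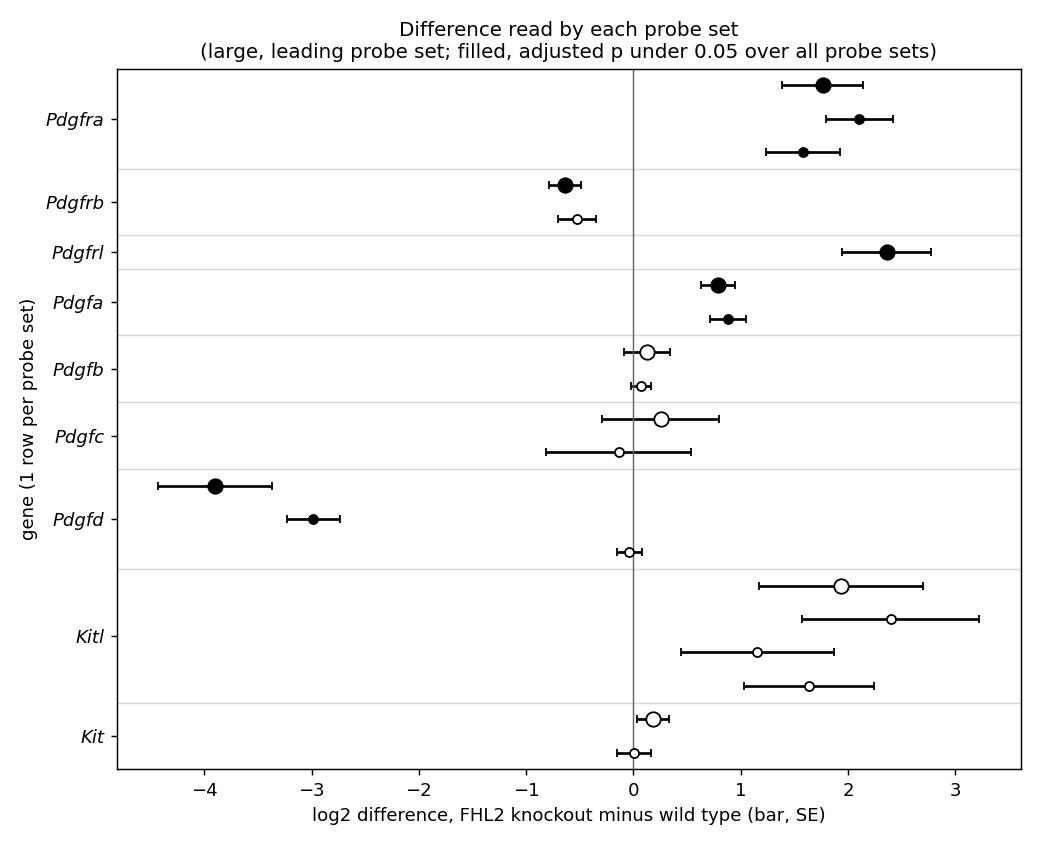
Log2 difference, knockout minus wild type (horizontal axis; bars are SE), for each of the 21 probe sets of the 9 genes; large symbols are leading probe sets and filled symbols passed over all single-symbol probe sets. The 3 Pdgfra probe sets lie together near 2, those of Kitl lie to the right without passing, and 1 of the 3 Pdgfd probe sets lies at 0.

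Of the 21 probe sets of the 9 genes, 9 passed over all single-symbol probe sets, beside 16.8% of all such probe sets (6 rose, beside 7.82%, and 3 fell, beside 8.99%). All 9 belong to the 5 genes called, whose leading probe sets had chosen them. The probe sets of those genes that did not pass were the second probe set of Pdgfrb and the low-reading probe set of Pdgfd. An exact two-sided permutation test gave p = 0.10 for each of these 5 genes by its leading probe set. With 20 ways to assign 3 clones of 6 this is the lowest p possible, so the exact test cannot reach 0.05 here. The same exact permutation test gave p = 0.20 for Kitl, 0.30 for Kit and 0.80 for Pdgfb and Pdgfc.

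**Figure D3:**
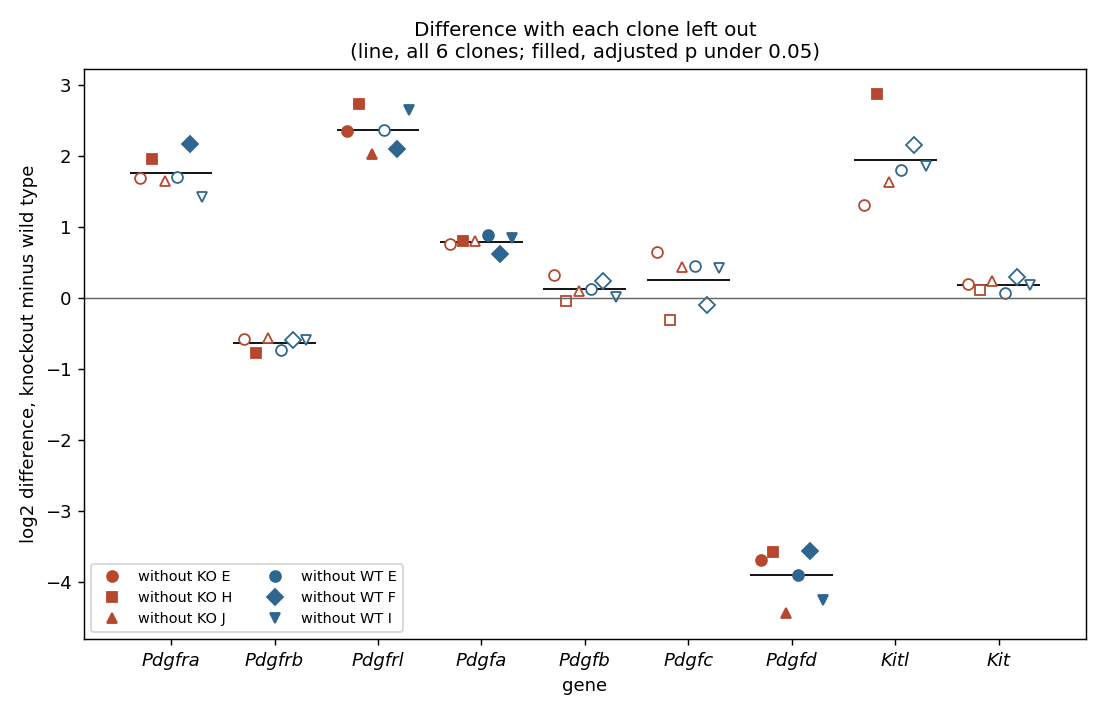
Log2 difference, knockout minus wild type (vertical axis), of each gene in the 6 fits that leave out 1 clone; red symbols leave out a knockout clone, blue symbols a wild type clone, filled symbols passed, and lines give the value with all 6 clones. Pdgfd is filled in 6 of 6 fits, Pdgfrb in 1, and Kitl only where knockout clone H is left out.

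The 2 kinase receptors of PDGF moved apart within clones. The Pdgfra reading minus the Pdgfrb reading was 1.82, 0.89 and 1.91 in the E, H and J knockouts, against -0.79, -0.16 and -1.63 in the E, F and I wild types. The knockout mean of this within-clone difference exceeded the wild type mean by 2.40. The Pdgfa reading minus the Pdgfd reading was 5.15, 5.30 and 3.56 in knockout clones, against 0.18, -1.02 and 0.80 in wild type clones in the same clone order, a shift of 4.69. These pairs were chosen after their values were seen and are given without a test; they show unequal change, not which transcript is more abundant.

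Pdgfra and Kit are neighbours on their chromosome, with no measured gene between them. Pdgfra rose while Kit stayed near the lower end of the scale. Of the other 10 genes measured within 5 places of either, 1 rose and 0 fell. It was Tmem165, a Golgi membrane protein, which rose by 0.45 (SE 0.11, limma adjusted p = 0.0354) in a call that held only without wild type clone F. Kdr, the VEGF receptor gene that follows Kit, read 4.85, 6.99 and 4.81 in the E, H and J knockouts, against 5.49, 6.70 and 5.38 in the E, F and I wild types. Its high clones were knockout H and wild type F, so the groups overlapped (-0.30, SE 0.66, limma adjusted p = 0.796). Chic2 and Gsx2, on the other side of Pdgfra, differed by -0.07 (SE 0.11) and 0.30 (SE 0.10), and Fip1l1, Lnx1 and Scfd2 by -0.05, -0.22 and 0.50. Srd5a3, Clock and Pdcl2, beyond Kdr, differed by -0.40, -0.56 and -0.07. None of these 8 genes passed. Gsx2 and Pdcl2 read 2.99 to 3.44 and 2.55 to 2.72 over all 6 clones, as near the lower end of the scale as Kit. Such readings need not come from transcript, so they can show little of a shared change. Around all 9 genes together, 5 of 80 neighbours rose and 5 fell, which is 6.25% each way, beside 9.04% and 10% of all genes. Of the 10 around Pdgfd, 1 fell and 0 rose. It was Casp4, 2 places before Pdgfd (-3.80, limma adjusted p = 0.000934), which passed whichever clone was omitted. Of the 10 around Pdgfrl, 1 rose and 0 fell. It was the adjacent Slc7a2 (2.58, limma adjusted p = 0.0355), which passed only with knockout H, wild type F or wild type I omitted. Around Kitl, itself at 1.94 without passing, 2 fell and 0 rose. Shared change of neighbours was not tested.

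**Figure D4:**
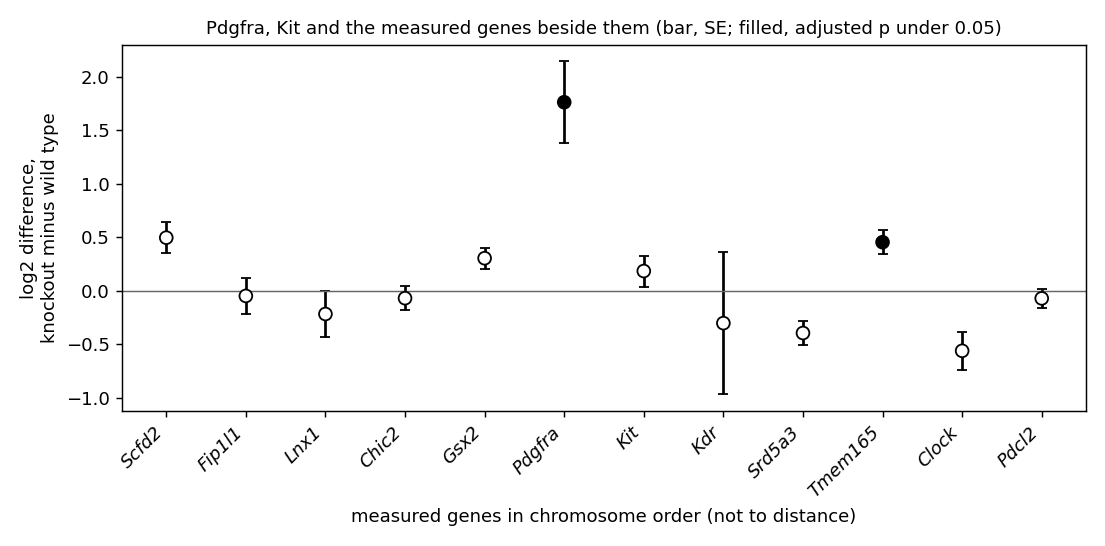
Log2 difference, knockout minus wild type (vertical axis; bars are SE), of Pdgfra, Kit and the measured genes beside them in chromosome order; spacing does not show distance, and filled symbols passed. Pdgfra at 1.76 stands above its neighbours, which lie between -0.56 and 0.50. Of these neighbours Kit, Gsx2 and Pdcl2 read near the lower end of the scale in all clones.

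The genes whose profile over the 6 clones was most like that of a gene described here were found by the root mean square (RMS) difference of log2 values centred on each gene's mean. Only genes at or above the median level (5.92) were searched, and likeness over 6 clones of 2 genotypes says nothing about shared control. Nearest to Pdgfra were Bmp4, a bone morphogenetic protein, Osr1, a transcription factor of embryonic mesoderm, and L3hypdh, with RMS differences of 0.10, 0.21 and 0.25. Bmp4 read 9.19, 8.54 and 9.37 in the E, H and J knockouts, against 7.25, 8.11 and 6.42 in the E, F and I wild types, and thus had the same order of wild type clones as Pdgfra. Nearest to Pdgfrl were Egr2, a growth-factor-induced transcription factor (0.20), Il3ra (0.26) and Sorl1 (0.35). Nearest to Pdgfa were C230091D08Rik (0.05), Zfp688 (0.08) and Gphn (0.08). Nearest to Pdgfd were Lhx9, a LIM homeobox gene (0.32), Serpinb9b, a serine protease inhibitor (0.46), and Oasl2, an interferon-induced gene (0.50). Nearest to Pdgfc were Gja1, which encodes a gap junction protein (0.16), Nudt18 (0.22) and Prkab2 (0.29), each highest in knockout clone H. Nearest to Kitl were Gpm6b (0.22), Steap4 (0.24) and Id1, an inhibitor of basic helix-loop-helix factors (0.30). Id1 read 10.38, 8.13 and 10.45 in the E, H and J knockouts, against 7.62, 8.39 and 7.36 in wild type clones, so clone H again lay within the wild type range.

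Genes that process or switch off these ligands and receptors changed in both directions. Of 19 genes measured out of 19 listed, 4 rose, 4 fell and 11 did not pass, or 42.1% called beside 19% of all genes (median -0.16, beside 0.04 over all genes). The 19% also counts genes near the lower end of the scale. A fit of only the genes at or above the median level gave 1410 rises and 1732 falls, against 1644 and 1820 over all genes. Calls were thus more frequent in that upper part, and 19% is a low base for a list of well-expressed genes. Ptprj, a phosphatase that acts on PDGFR-beta, fell by 1.45 (SE 0.13, limma adjusted p = 0.00215), at 4.32 to 4.63 in the knockouts and 5.75 to 6.07 in the wild types. Adam10, a membrane protease, fell by 0.62 (SE 0.09, adjusted p = 0.00826). Pcsk6, a proprotein convertase related to furin, rose by 2.68 (SE 0.42, adjusted p = 0.00883), at 7.73 to 9.27 in the knockouts and 5.46 to 6.18 in the wild types. These 3 calls held whichever of the 6 clones was omitted. The activating proteases of PDGF-C and PDGF-D, tissue-type and urokinase-type plasminogen activator, did not pass (Plat -1.39, adjusted p = 0.179; Plau 0.05, adjusted p = 0.873). The falls of this list numbered 8 without knockout clone H and 2 without any other clone.

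Of 30 receptor adaptors and effectors measured out of 31 listed, 4 rose, 4 fell and 22 did not pass (26.7% called beside 19% of all genes, median 0.00). That is 13.3% in each direction, near the 9.04% that rose and 10% that fell over all genes. As for the list above, these shares over all genes are a low base for well-expressed genes. Sos1, which activates Ras, fell by 0.84 (SE 0.10, limma adjusted p = 0.00391). Rasa1, the Ras GTPase-activating protein that docks on PDGFR-beta, fell by 1.42 (SE 0.19, adjusted p = 0.00633), at 7.76 to 8.21 in the knockouts and 9.17 to 9.74 in the wild types. Fyn, a kinase of the Src family, fell by 1.17 (SE 0.17, adjusted p = 0.00688). These 3 falls held whichever of the 6 clones was omitted, while the number of rises went to 0 on omitting knockout J or either of the E and F wild types, and to 2 on omitting knockout E or the I wild type. Grb2, the adaptor that links receptors to Sos1, differed by 0.12 and Plcg1, a phospholipase that docks on these receptors, by -0.12; neither passed (adjusted p = 0.709 and 0.533).

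Among 23 genes listed as immediate-early, 5 rose, 3 fell and 15 did not pass (34.8% called beside 19% of all genes, median 0.21). The 19% is again a low base for well-expressed genes, so the share called is not read as an excess. Growth factors induce many of them, but not all, within minutes in resting fibroblasts. Klf4, a zinc-finger transcription factor, rose by 2.17 (SE 0.33, limma adjusted p = 0.00838), at 10.10 to 11.22 in the knockouts and 8.09 to 8.94 in the wild types. Fosl1, the AP-1 subunit Fra-1, fell by 1.61 (SE 0.24, adjusted p = 0.00760), and Dusp6, a phosphatase of the ERK kinases, by 1.54 (SE 0.25, adjusted p = 0.00989). These 3 calls held whichever of the 6 clones was omitted. Egr2, which was also nearest in profile to Pdgfrl, rose by 2.39 (SE 0.47, adjusted p = 0.0186), but no longer passed on omitting either of the E and J knockouts or either of the E and F wild types. Fosb, Jun and Zfp36 rose by 3.47, 1.19 and 1.98 (limma adjusted p = 0.0330, 0.0375 and 0.0433), and Myc fell by 0.87 (adjusted p = 0.0250). Each of these lost its call in 3 or 4 of the 6 fits that omit a clone. The rises numbered 1 on omitting knockout J or the E wild type, and 3 on omitting either of the F and I wild types. Dusp6 is also a near neighbour of Kitl, the second measured gene before it in chromosome order.

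The other receptors and ligands of the same class showed no call. Of 4 genes measured out of 5 listed, limma called 0, and 0 had an unadjusted p under 0.05. Csf1r, the receptor of macrophage colony-stimulating factor, differed by -0.28 (SE 0.14), Flt3, a receptor of blood progenitors, by 0.13 (SE 0.09), and the ligand Csf1 by -0.23 (SE 0.25). Their adjusted p-values were 0.222, 0.375 and 0.582.

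**Figure D5:**
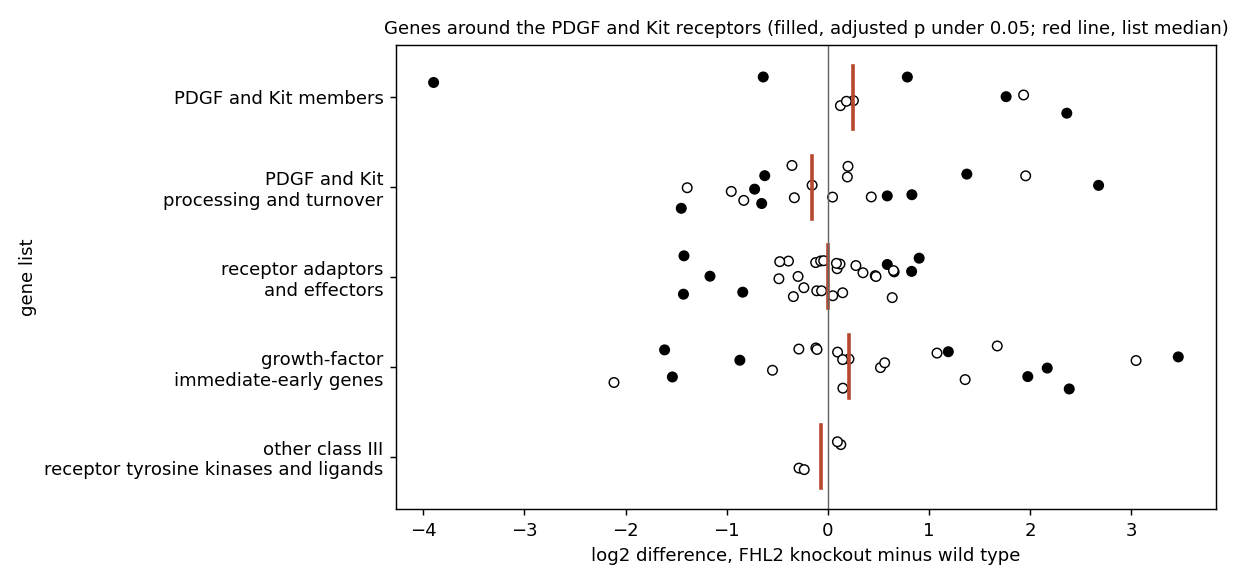
Log2 difference, knockout minus wild type (horizontal axis), of the 9 PDGF and Kit genes and of 4 lists of related genes; each point is a gene, filled points passed, red lines are list medians, and vertical scatter within a row carries no value. Filled points stand on both sides of 0 in each row but that of the other class III receptors, which has none.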

How the data were processed

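Expression was measured in 3 FHL2 knockout and 3 wild type clones, 1 array each. The deposited values are log2 intensities; the authors made them with RMA, per the submitters' processing notes, and no source used here gives its version or settings. Titles gave the groups. The 64 control probe sets, 932 with several symbols and 9160 without one were left out; 34945 remained, of which 34741 matched RefSeq by gene ID. The genotypes were tested with limma (version 3.58.1, R 4.3.3; lmFit, eBayes, genotype alone; 4 residual degrees of freedom), adjusted by Benjamini-Hochberg at 0.05. Each p-value reflects the spread among clones. Arrays have no read depth; the number of clones limits the precision (median SE 0.141). The genes described and the lists were chosen with earlier results of these data known. Named were Fhl2, the 9 genes, up to 3 genes a list by lowest unadjusted p, the 3 nearest profiles of each gene spanning at least 1 log2 unit, and up to 5 measured neighbours on each side of Pdgfra and Kit; other genes were named after their values were seen. Alternatives changed the prior, normalization, level filter, probe sets, array weights, fold threshold and clones. Figures used matplotlib 3.10.9 in Python 3.11.15.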

Additional observations from a re-analysis of the deposited data

How the results depend on the processing

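The number of genes that rose among the 9 was 3 with all clones and 1 to 4 when 1 clone was left out; the number that fell was 2 and 1 to 2. Leaving out 1 clone gave 777 to 2304 rises and 884 to 2446 falls over all genes, against 1644 and 1820 with all clones. Against a 2-fold threshold (limma treat), 0 of the 9 genes rose and 0 fell (2 and 1 at an unadjusted p under 0.05), beside 84 rises and 109 falls over all genes. Falls numbered 1 among more highly expressed genes, where Pdgfd was not tested, and 1 without _x_at, _s_at and _a_at probe sets. Pdgfb, which was not called, ran from -0.0500 without knockout clone H to 0.32 without knockout clone E. Pdgfc ran from -0.32 without knockout clone H to 0.65 without knockout clone E, and it was -0.0871 with array weights, -0.10 without wild type clone F and -0.14 by its second probe set; the cause was not tested. The directions of Pdgfra, Pdgfrb, Pdgfrl, Pdgfa, Pdgfd, Kitl and Kit held in each alternative run. Array weights gave 8 falls among the processing genes and 7 and 8 rises among the effectors and immediate-early genes, and the probe set restriction left 1 rise among the effectors; the 2-fold threshold gave 0 calls in each list. A trended robust prior, quantile normalization again and median centring changed no call of the 9 genes. Kit and Pdgfc have no probe set outside the _a_at and _s_at kinds, so that alternative gave them no value. No paired analysis was possible because the groups share only the clone letter E, which names separate clones.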
